A study of Mus musculus with 4 samples.

Results

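The 7 genes described here encode vimentin and proteins that bind, crosslink, anchor or regulate actin filaments: Vim, Tmsb4x, Vcl, Actn1, Enah, Tpm2 and Rhob. They were taken as every clone whose only platform gene symbol is 1 of these, which gave 13 clones, out of 12480 clones with 1 symbol and 8106 genes in all. All 7 were measured, Actn1 with 3 clones, Vim, Vcl, Enah and Tpm2 with 2 each and Tmsb4x and Rhob with 1. The genes were picked with their high-salt over low-salt ratios known, so these ratios are given as a description and no test is made of them.

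The study set ventricles of mice on high salt against ventricles of mice on low salt on 2-colour printed cDNA arrays. On high salt the drinking water held 1% NaCl for 5 weeks, and on low salt it was plain tap water. Both groups had 1 kidney removed, were treated with deoxycorticosterone acetate (DOCA, a mineralocorticoid) for 5 weeks and ate food with 0.5 mg Na per g, so DOCA and the kidney loss are common to both. All were males of 12 to 13 weeks, labelled 1-renin and wild-type, from a backcross between 129Ola and C57BL/6J. The tissue was the right and left ventricles with the septum, homogenised whole.

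There were 6 mice in 3 pairs and 4 arrays, each array carrying 1 high-salt and 1 low-salt heart. Pair 1 was on array 1 and pair 2 on array 2, both with Cy3 on high salt. Pair 3 was on array 3 and pair 2 again on array 4, both with Cy5 on high salt. Arrays 2 and 4 are technical repeats and were averaged, so n is 3 pairs and limits the precision. The deposited log ratios are read as log2 of high over low salt, as the array titles word it, a reading kept with the values known. That direction is not settled, since arrays of opposite dye correlated at r between -0.61 and -0.34 over all 17207 measured features. For arrays 2 and 4, from the same mice, r was -0.41, while arrays of the same dye correlated at 0.69 and 0.53. Outside print positions that recur unnamed in every print block (16471 features), arrays of opposite dye correlated more weakly, between -0.37 and -0.073. Arrays 2 and 4 gave the -0.073, and arrays of the same dye correlated there at 0.57 and 0.43. Values with arrays 1 and 2 turned are therefore given too. Ratios carry no expression level, so cardiac markers could not be used to check the tissue.

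In cells, actin cycles between free monomers and filaments. Thymosin beta 4 holds monomers in reserve, Ena/VASP proteins promote filament growth, tropomyosins coat filaments, and alpha-actinins crosslink them. Vinculin ties filaments to adhesion sites and, in heart muscle, to the intercalated discs and costameres. Vimentin forms the intermediate filaments of fibroblasts, endothelium and smooth muscle, whereas desmin is the filament of the cardiac myocyte. Several genes of actin-linked proteins, vinculin among them, are known targets of serum response factor, which binds the CArG box and is regulated by the pool of free actin.

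The stretches just before the start sites of 4 of the genes are shown because they hold the only CArG box found among the 7 (Vcl) or belong to the genes at the upper end (Vim and Tmsb4x) and the lower end (Rhob) of the log2 ratios. They are the 250 bases before the RefSeq start site in build GRCm38.p6, on the strand of the gene, at chr2:13574061-13574310 (plus strand), chrX:167209219-167209468 (minus strand), chr14:20929148-20929397 (plus strand) and chr12:8500010-8500259 (minus strand). Capitals mark matches on either strand to the CArG box, the CCAAT box with the letters CCAAT, the TATA box with TATAAA, the GC box with GGGCGG, the MCAT box with CATTCC and the AP-1 site with TGANTCA.
Vim: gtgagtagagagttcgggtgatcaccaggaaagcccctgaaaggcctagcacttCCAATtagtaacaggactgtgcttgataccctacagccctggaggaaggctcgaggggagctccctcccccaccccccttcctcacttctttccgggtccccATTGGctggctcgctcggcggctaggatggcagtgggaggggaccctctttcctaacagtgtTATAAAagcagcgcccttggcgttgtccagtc
Tmsb4x: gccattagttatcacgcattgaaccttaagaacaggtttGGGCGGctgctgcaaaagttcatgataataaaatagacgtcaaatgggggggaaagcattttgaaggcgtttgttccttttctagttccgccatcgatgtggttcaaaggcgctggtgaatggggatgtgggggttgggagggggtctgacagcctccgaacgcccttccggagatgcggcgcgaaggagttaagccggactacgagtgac
Vcl: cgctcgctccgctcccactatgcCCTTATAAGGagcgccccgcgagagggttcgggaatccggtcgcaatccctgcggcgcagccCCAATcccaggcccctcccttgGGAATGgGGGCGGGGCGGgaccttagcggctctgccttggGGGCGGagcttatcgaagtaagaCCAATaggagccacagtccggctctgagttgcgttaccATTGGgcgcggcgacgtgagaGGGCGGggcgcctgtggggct
Rhob: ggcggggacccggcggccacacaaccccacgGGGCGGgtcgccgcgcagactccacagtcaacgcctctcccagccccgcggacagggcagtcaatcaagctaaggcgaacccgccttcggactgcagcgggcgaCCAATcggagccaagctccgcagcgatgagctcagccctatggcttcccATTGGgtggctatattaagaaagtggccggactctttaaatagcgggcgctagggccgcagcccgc

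All 7 genes matched a RefSeq window. The CArG box of Vcl spans bases 227 to 218 before the start and reads the same on both strands. It was found in 1 of the 7 windows, and 1.47% of all 32851 RefSeq windows of this length hold one. Vim had a TATAAA at bases 32 to 27 before the start, a position typical of a TATA box. Only 1 of the 7 windows held that motif, against 12.4% of all windows. A GC box stood in 6 of the 7 windows (32.7% of all) and was not found in that of Vim. Within Vcl, 2 of its 4 GC boxes overlap by 1 base. CCAAT stood in 4 windows (33.8% of all), those of Vim, Vcl, Actn1 and Rhob, and an MCAT box in 1 (12.6%), that of Vcl. None of the 7 held an AP-1 site, against 6.75% of all windows. The Enah window was the richest in G and C among the 7 at 84.8%, and that of Tmsb4x the poorest at 52.0%, against a median of 52.4% over all windows. A match describes the letters and is not evidence of binding.

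Vim and Tmsb4x stood well above the other 5 genes. The mean log2 ratio was 0.81 ± 0.21 for Vim and 0.73 ± 0.14 for Tmsb4x (SD, n = 3 pairs), or 1.75-fold and 1.65-fold. Vcl, Actn1 and Enah followed at 0.24 ± 0.16, 0.18 ± 0.15 and 0.10 ± 0.083. Tpm2 at -0.046 ± 0.19 and Rhob at -0.15 ± 0.25 lay below 0. In this order only the step between Tmsb4x and Vcl was free of overlap, with the lowest pair of Tmsb4x at 0.57 and the highest of Vcl at 0.34. All other neighbours overlapped in their pair values. The middle 95% of all 8106 gene means lay between -0.31 and 0.38.

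Taken by sign, 5 of the 7 genes had a mean above 0, where 49.8% of all genes did. Vim, Tmsb4x, Actn1 and Enah were above 0 on all 4 arrays, as were 7.01% of all genes, and none of the 7 was below 0 on all 4, as were 7.75%. Since the genes were chosen on this contrast, nothing is read from these shares. Across all genes limma called 0 of 8106 (0.0%) at an adjusted p under 0.05, while before adjustment 228 genes were higher and 213 lower (p under 0.05). An unmoderated one-sample statistic also called 0, with 186 higher and 194 lower.

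**Figure D1:**
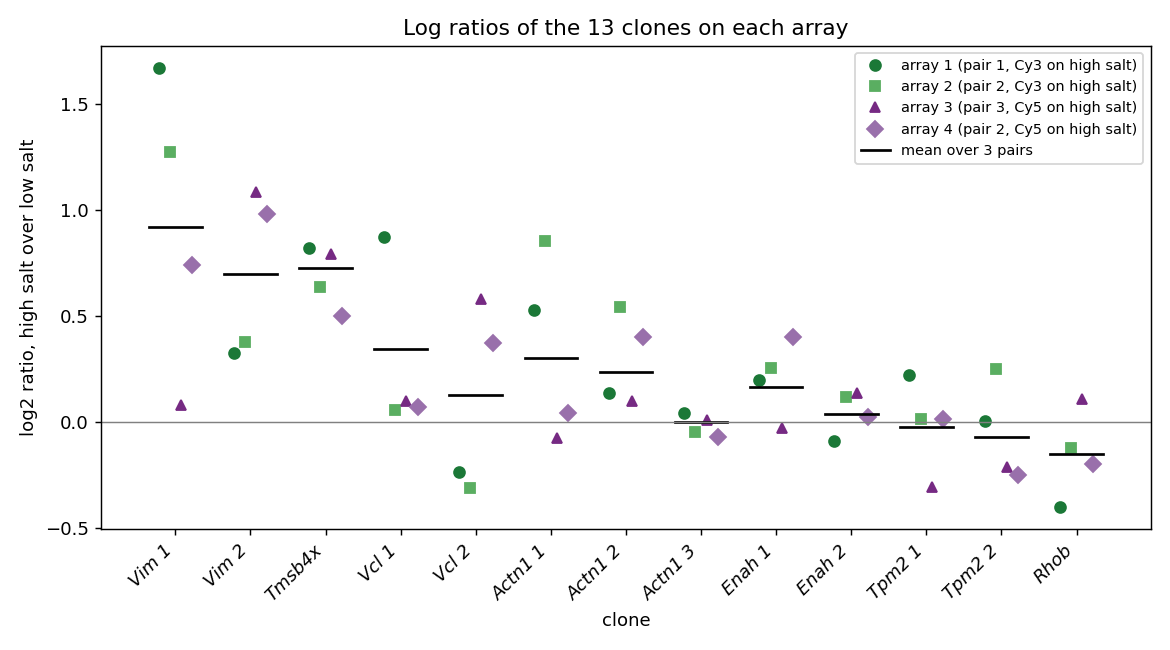
Log2 ratio of high over low salt (vertical axis) for each of the 13 clones (horizontal axis), with 1 symbol per array and a bar at the mean over 3 pairs. Both Vim clones and the Tmsb4x clone are above 0 on all 4 arrays, and the 2 Vim clones are highest on arrays of opposite dye.

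Vim, the mesenchymal intermediate filament, had log2 ratios of 1.00, 0.82, 0.58 and 0.86 on arrays 1 to 4 as a gene. This even series hides clones that behaved in opposite ways. The first clone gave 1.67 and 1.27 on arrays 1 and 2, against 0.079 and 0.74 on arrays 3 and 4. The second gave 0.33 and 0.38 on arrays 1 and 2, against 1.09 and 0.98 on arrays 3 and 4. The first was thus higher wherever Cy3 was on high salt and the second wherever Cy5 was. In pair 2, where both arrays held the same mice, array 2 minus array 4 was 0.53 for the first clone and -0.60 for the second. Their SDs over pairs were 0.80 and 0.38, and averaging them gave the 0.21 of the gene. Both clones remained above 0 on every array, with means of 0.92 and 0.70.

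Tmsb4x, thymosin beta 4, the main monomer-sequestering peptide of many cells, was the steadier of the 2 leading genes, and its value rests on 1 clone. It stood at 0.82 on array 1, 0.64 on array 2, 0.79 on array 3 and 0.50 on array 4. Each dye orientation thus held a value near 0.8 and a lower one, the lower ones both from pair 2. Exchanging the dyes in pair 2 moved it by 0.14.

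Vcl, vinculin, had 2 clones that differed in sign on the Cy3 arrays. The first stood at 0.87 on array 1 and at 0.058, 0.10 and 0.071 on arrays 2 to 4, so its mean of 0.35 ± 0.46 came largely from pair 1. The second stood at -0.23 and -0.31 on arrays 1 and 2 and at 0.58 and 0.37 on arrays 3 and 4, with a mean of 0.13 ± 0.41. The gene value of 0.24 therefore joins 1 clone that was high in a single pair and 1 whose sign went with the dye.

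Actn1, the non-muscle alpha-actinin that crosslinks filaments in stress fibres, had 3 clones of different size. The first stood at 0.53 and 0.86 on arrays 1 and 2, against -0.077 and 0.041 on arrays 3 and 4, and its difference of 0.81 between arrays 2 and 4 was the widest of the 13 clones. The second stood at 0.14, 0.54, 0.10 and 0.40 on arrays 1 to 4 and was thus higher on both arrays of pair 2 than in the other pairs. The third was flat, between -0.070 and 0.042, with a mean of -0.0016 ± 0.051. The gene mean of 0.18 averages 2 clones at 0.30 and 0.24 with this flat one.

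Enah, the Ena/VASP protein Mena that promotes filament elongation, lay close to 0. Its clones stood at 0.20, 0.26, -0.028 and 0.40 and at -0.088, 0.12, 0.14 and 0.025 on arrays 1 to 4, so each had 1 value below 0. Only their average was above 0 on all 4 arrays, at 0.056, 0.19, 0.056 and 0.21. Pair 2 held the highest value of the gene, at 0.20, and without it the mean was 0.056.

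Tpm2, the beta-tropomyosin, and Rhob, an early-induced small GTPase, were the 2 genes below 0. The Tpm2 clones stood at 0.22, 0.013, -0.31 and 0.016 and at 0.0035, 0.25, -0.21 and -0.25 on arrays 1 to 4. Both were lowest or nearly so on array 3, and the gene was above 0 on the Cy3 arrays and below 0 on the Cy5 arrays. The single Rhob clone stood at -0.40, -0.12, 0.11 and -0.20, above 0 only on array 3. Neither gene mean exceeded its SD. Tpm2 stood at 0.060 without pair 3, -0.13 without pair 1, -0.074 without pair 2 and -0.0054 with pair 2 taken from array 2 alone, and Rhob at -0.025 without pair 1 and -0.28 without pair 3.

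Over the 13 clones, 9 had a mean above 0 and 4 below. On all 4 arrays 5 clones were above 0, both of Vim and 1 each of Tmsb4x, Vcl and Actn1, a sign pattern shared by 6.99% of all named clones. None was below 0 on all 4, as were 7.09%, and the other 8 had both signs. The range of clone means within a gene was 0.22 for Vim and for Vcl, 0.30 for Actn1, 0.13 for Enah and 0.045 for Tpm2, with a median of 0.22. The median range over the 2851 genes with several clones was 0.13. Which part of a transcript each clone covers is not given in the sources used here.

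**Figure D2:**
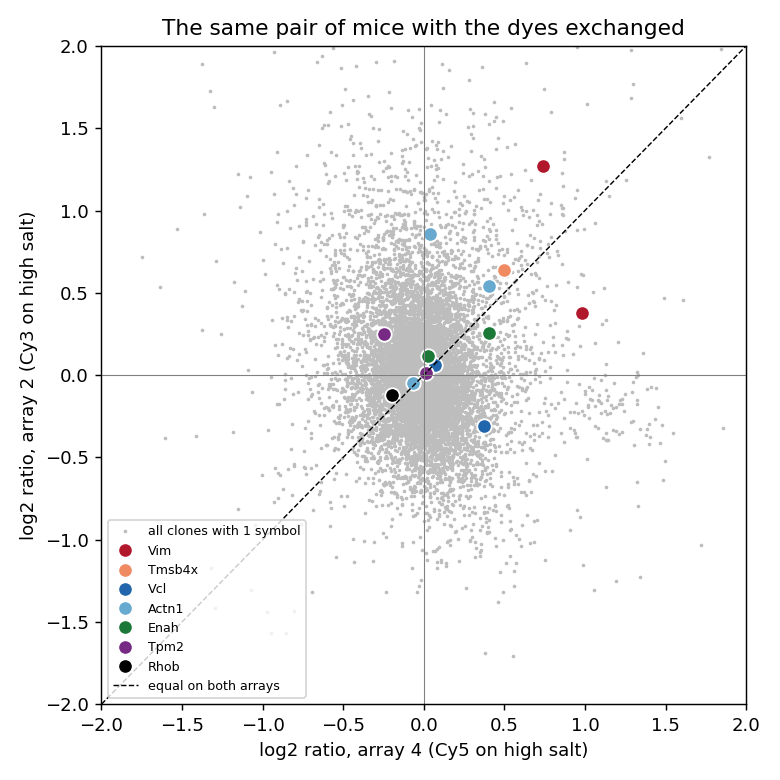
Log2 ratios of high over low salt in pair 2 on array 4 (Cy5 on high salt, horizontal) and array 2 (Cy3 on high salt, vertical) for the 13 clones in colour and all 12480 named clones in grey, of which 41 lie outside the axes. The Vim clones fall on either side of the dashed line of equal values.

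The arrays of pair 2 held the same mice. If the table was turned for the dyes, their difference is technical and holds the dye effect and the noise of each array. If it was not turned, the difference also holds the effect of salt. The absolute difference of arrays 2 and 4 ran from 0.0029 to 0.81 over the 13 clones, with a median of 0.14. Over all named clones its median was 0.22 and its 90th percentile 0.80. By the mean of each orientation, 9 of the 13 clones were higher on the Cy3 arrays and 4 on the Cy5 arrays. The share over all named clones was not counted, so nothing is read from this.

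A dye term was fitted with limma to the 3 pairs over all genes. As deposited it is not the contrast on which the genes were chosen, but it uses the same values. If the table had not been turned for the dyes, it would hold the effect of salt. The terms of the 7 genes are therefore given as a description, without p-values. Over all genes the dye term passed a limma adjusted p of 0.05 for 416 of the 8106 (5.13%). At an unadjusted p under 0.05 it held for 1986 of all genes (24.5%). As deposited, the 2 largest terms of the 7 genes were 0.25 ± 0.071 (SE) for Rhob, higher with Cy5 on high salt, and -0.21 ± 0.072 for Vim. The terms of Enah at -0.0001, Vcl at 0.011 and Tmsb4x at -0.013 were near 0, although the 2 Vcl clones differed in opposite directions between pairs 1 and 3. For the first Vcl clone this came from array 1, as arrays 2 and 4 stood at 0.058 and 0.071. The 2 Vim clones leaned to opposite dyes, so the term of Vim averages opposite leanings and its SE does not show their spread. Pairs 1 and 3 also differ in their mice, so dye and animals cannot be told apart in this term. The order differs with arrays 1 and 2 turned, with terms of 0.81 for Tmsb4x, 0.79 for Vim, 0.33 for Vcl and -0.15 for Rhob. That turned term averages the deposited values of pairs 1 and 3, on which the genes were chosen, so it has no test.

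With the sign of arrays 1 and 2 turned, as would apply if the table had not been turned for the dyes, Vim and Tmsb4x no longer stood out. Vim was then at -0.13 ± 0.80, Tmsb4x at -0.032 ± 0.81 and Actn1 at -0.13 ± 0.13. Vcl stood at 0.065 ± 0.34, Enah at 0.0044 ± 0.056, Tpm2 at -0.16 ± 0.082 and Rhob at 0.16 ± 0.22. In this reading 3 of the 7 genes lay above 0 and 4 below, and limma again called 0 of all genes, and before adjustment 565 were higher and 1118 lower (p under 0.05). The spread of Vim and Tmsb4x between pairs was 0.21 and 0.14 as deposited, against 0.80 and 0.81 when turned. Both genes were well above 0 on all 4 arrays as deposited, so turning 2 arrays had to widen their spread. These spreads therefore say nothing of which direction is right.

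**Figure D3:**
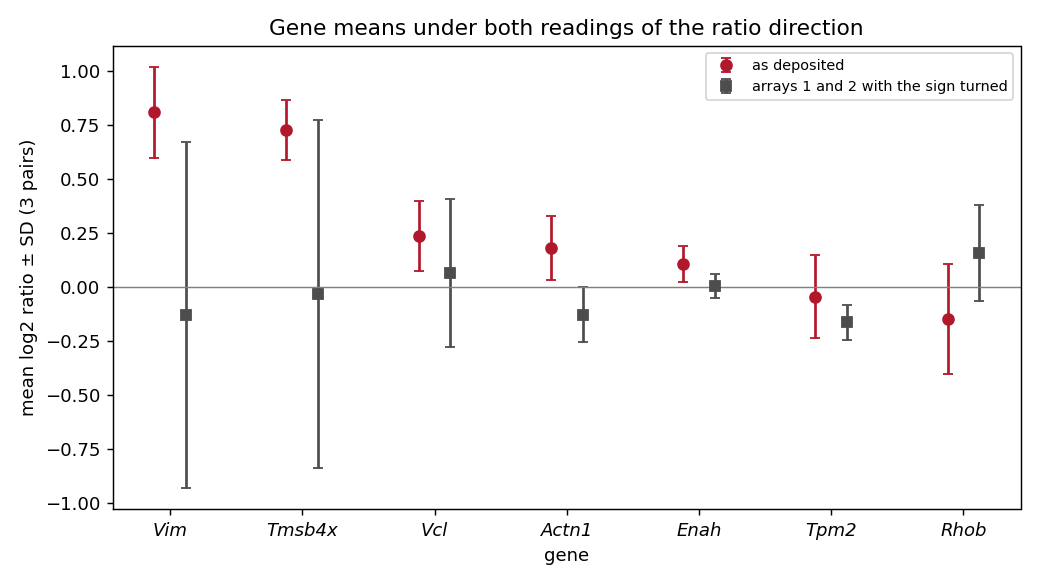
Mean log2 ratio with SD over 3 pairs for each of the 7 genes, as deposited (circles) and with arrays 1 and 2 turned (squares). Vim and Tmsb4x stand at 0.81 and 0.73 as deposited and near 0 with wide bars when turned.

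Among relatives of the same families, Tmsb10 stood close to Tmsb4x. Tmsb10, the other widespread beta-thymosin, was at 0.55, 0.84, 0.45 and 0.79 on arrays 1 to 4, above 0 on each, with a mean of 0.61 ± 0.19 from 1 clone. Its pairs overlapped those of Tmsb4x. With arrays 1 and 2 turned it was at -0.041. Printed cDNA can bind transcripts of close relatives, and how far clones of a family share signal was not tested.

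The relatives of Vcl are the alpha-catenins. Ctnna1, alpha-catenin of adherens junctions, was at -0.083 ± 0.15 from 5 clones, Ctnna2, the neuronal form, at -0.025 ± 0.071, and Ctnna3, the form of heart and testis, at -0.077 ± 0.23. Turning arrays 1 and 2 put them at 0.13, -0.046 and 0.21, and Vcl at 0.065. Among the alpha-actinins, Actn2, the Z-disc form of heart and skeletal muscle, was at -0.0074 ± 0.14, Actn3, the fast skeletal form, at 0.088 ± 0.13 and Actn4, the other non-muscle form, at 0.10 ± 0.45. Actn4 stood at 0.50 and 0.53 on the Cy3 arrays and at -0.38 and -0.17 on the Cy5 arrays, so its sign went with the dye. Pair values of Actn1 overlapped those of each.

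Of the other Ena/VASP proteins, Vasp was at 0.16 ± 0.62 and Evl at -0.0030 ± 0.064. The pairs of Enah overlapped those of Vasp, and its lowest pair value of 0.056 lay just above the highest of Evl, 0.054. The tropomyosins Tpm1, the main cardiac form, Tpm3 and Tpm4 were at -0.25 ± 0.25, 0.065 ± 0.51 and -0.14 ± 0.16, all overlapping Tpm2. Rhoa, a relative of Rhob, stood at 0.13 ± 0.10 from 5 clones and its pairs overlapped those of Rhob. Of the 4 genes listed as the family of Vim, only Vim was measured under 1 symbol. Intermediate filament genes outside that family were measured and are counted in the lists below.

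**Figure D4:**
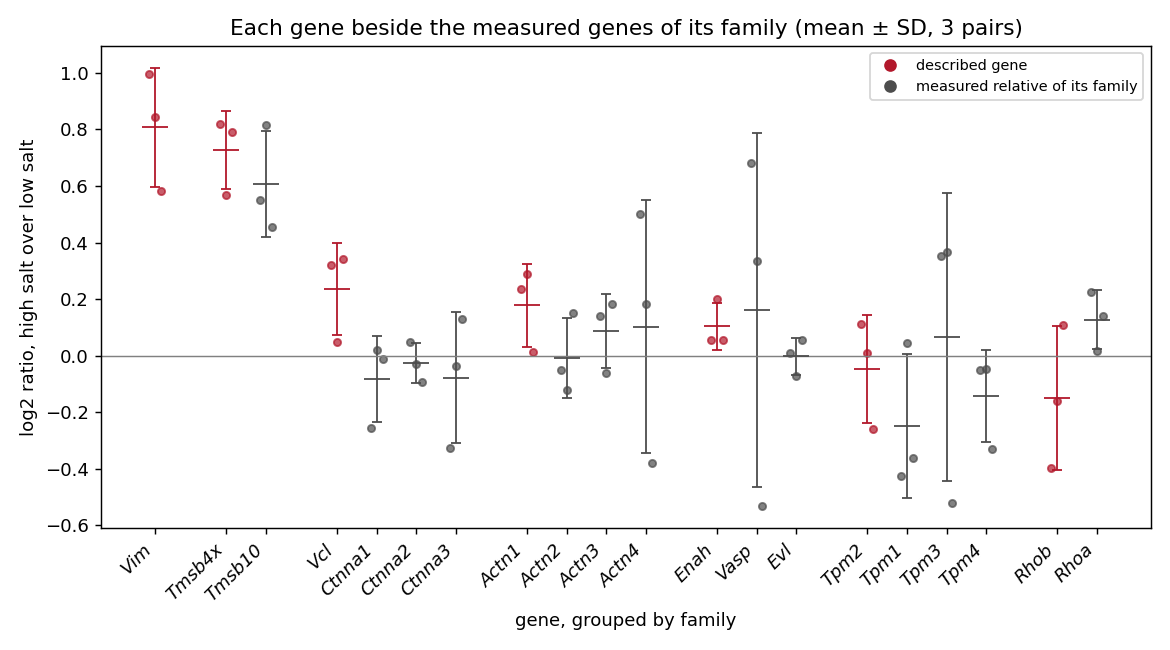
Log2 ratio of high over low salt for each of the 7 genes (red) and the measured genes of its family (grey), with points for pairs 1 to 3 from left to right, and the mean with its SD. Tmsb4x and Tmsb10 both lie above 0 in all pairs, while the alpha-catenins lie around 0.

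Other genes of the cytoskeleton were taken from 9 lists by role, chosen with earlier results of these data known. Their counts beside all genes are therefore a description, and nothing is read from them. Of 161 listed genes outside the 7, 102 were measured, and 67 of them had a mean above 0 and 35 below, where 49.8% of all genes lay above 0. Their median log2 ratio was 0.084, against -0.0003 over all genes. limma called 0 of the 102 at an adjusted p under 0.05, and before adjustment 8 were higher and 3 lower (p under 0.05). The direction of the lists was not even across pairs. The mean over these genes was 0.20 in pair 1, 0.16 in pair 2 and -0.11 in pair 3, against 0.059, 0.016 and -0.055 over all genes. The mean over the 7 genes was 0.31, 0.26 and 0.23 in pairs 1 to 3. With arrays 1 and 2 turned, 31 of the 102 lay above 0, with a median of -0.088. The dye term passed for 11 of the 102, where 5.13% of all genes passed, and pair 3 is the only pair with Cy5 alone on high salt. The part of the dye in its lower mean was not tested.

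By role, and as deposited, the monomer side of the actin cycle had the highest median. Of 7 measured actins and monomer-binding proteins 5 were above 0, with a median of 0.32, whereas with arrays 1 and 2 turned 1 was above 0, with a median of -0.21. Nucleators and elongators had 13 of 18 above 0 (median 0.079), and crosslinkers and side-binding proteins 10 of 22 (median -0.0077). Focal adhesion and membrane linker proteins had 13 of 19 above 0 (median 0.13). Non-muscle myosins had 5 of 6 above 0 (median 0.19), intermediate filaments and linkers 4 of 5 (median 0.12) and tubulins 3 of 5 (median 0.10). Genes of the serum response factor pathway had 10 of 17 above 0 (median 0.060). With arrays 1 and 2 turned the medians of these 8 lists were all below 0, from -0.24 for myosins to -0.033 for the serum response factor pathway.

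**Figure D5:**
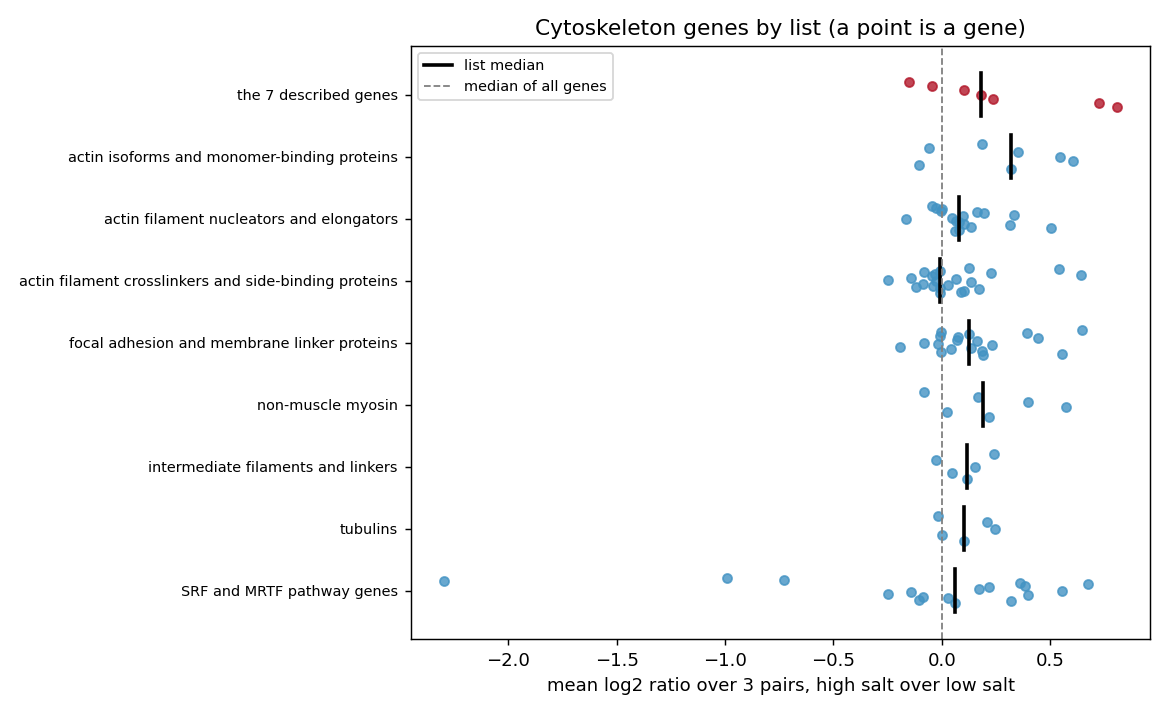
Mean log2 ratio of high over low salt over 3 pairs (horizontal axis) for the genes of each list (8 rows below that of the 7 genes), with a bar at the list median and a dashed line at the median of all genes. As deposited the monomer-binding list has the highest median, 0.32 (-0.21 with arrays 1 and 2 turned), and 3 genes of the serum response factor row lie below -0.7.

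Among listed genes with 1 sign on all 4 arrays as deposited, the highest after Tmsb10 and Fhl2 were Cav1, Msn, Fhl1 and Actb. Cav1, caveolin of membrane pits, was at 0.44 ± 0.39. Msn, moesin, which links actin to the membrane, stood at 0.064, 0.46, 0.51 and 0.75 on arrays 1 to 4, with a mean of 0.39 ± 0.29. Fhl2 and Fhl1, LIM proteins of the sarcomere, stood at 0.68 ± 0.36 and 0.36 ± 0.17. Actb, beta-actin, was at 0.32 ± 0.27 from 10 clones, with 0.37 and 0.84 on arrays 1 and 2 against 0.031 and 0.27 on arrays 3 and 4. Actb is often used to scale other genes, and here its values were higher on the Cy3 arrays. Both order and sign differ with arrays 1 and 2 turned, with Cav1 at 0.27, Msn at 0.20, Fhl1 at 0.078, Tmsb10 at -0.041, Actb at -0.21 and Fhl2 at -0.24.

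Of the 102 genes, 16 were above 0 on all 4 arrays, as were 7.01% of all genes. Below 0 on all 4 were 5 of the 102, as were 7.75% of all genes. Egr1, Fos and Junb, early-response transcription factors of the serum response factor pathway, stood at -2.30 ± 1.00, -0.73 ± 0.40 and -0.99 ± 0.71. Tpm4 and Cnn2, a calponin, were at -0.14 ± 0.16 and -0.086 ± 0.037. As deposited these early-response factors lay on the other side of 0 from Actb, which is in the same pathway list. Limk1, the LIM kinase that inactivates cofilin, was next lowest among genes of 1 sign, at 0.10 ± 0.080. limma adjusted p-values of these 12 genes lay between 0.67 and 1.0. With arrays 1 and 2 turned Egr1 and Fos stood at 0.33 and 0.13, and Junb at -0.40.

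Markers of other cells in ventricle pieces are given beside Vim, because whole tissue was used. Fewer cells of a type and less RNA per cell cannot be told apart in such samples. Fibroblast markers had 9 of 10 measured genes above 0, with a mean of 0.45, 0.43 and 0.41 in pairs 1 to 3 and a median over genes of 0.25. The list means were carried largely by the matrix genes Sparc, Col3a1 and Col1a2, at 1.07 ± 0.36, 1.04 ± 0.19 and 1.03 ± 0.20 (SD, n = 3 pairs). All other genes of the list were lower, with Fstl1 at 0.43 ± 0.14 and Lum at 0.37 ± 0.29. Dcn stood at 0.13 ± 0.16, Ddr2 at 0.11 ± 0.19 and Pdgfra, the receptor that marks fibroblasts, at 0.11 ± 0.26. Not all followed Vim, since Pdgfra was at -0.17 in pair 3, Col1a1 had a mean of 0.057 with -0.66 on array 2, and Tcf21 was below 0 on all 4 arrays. Sparc, Lum, Dcn, Ddr2, Col1a1 and Tcf21 were named after their values were seen. The part of these cells in the ratio of Vim was not tested.

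The other marker lists did not keep 1 sign over the pairs. Smooth muscle and pericyte markers had 6 of 6 above 0, with means of 0.32, 0.42 and -0.13 in pairs 1 to 3. Endothelial markers had 4 of 8 above 0, at 0.18, 0.24 and -0.17, and macrophage and leukocyte markers 3 of 7, at -0.14, 0.10 and -0.41. Cardiomyocyte markers had 3 of 5 above 0, at -0.13, -0.089 and 0.38. The pair 3 mean came mainly from the 1 clone of Nppb, a natriuretic peptide gene, at 1.71. Ttn, Ryr2, Atp2a2 and Fabp3 stood in pair 3 at 0.015, 0.22, -0.009 and -0.036. Nppb was singled out after its values were seen. With arrays 1 and 2 turned, 5 of the 10 fibroblast markers were above 0.

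The genes whose 4 array values came nearest to each of the 7 were found among all other named genes by the root mean square difference of the log2 ratios. Nearest to Vim were Tnc, the matrix protein tenascin C, at a difference of 0.20, and Fhl2 at 0.20. Nearest to Tmsb4x were Dysf, the membrane repair protein dysferlin, at 0.041 and Fam214a at 0.12. Dysf stood at 0.86, 0.66, 0.78 and 0.43 on arrays 1 to 4, so it followed Tmsb4x on each array. The nearest genes to the other 5 lay close by, as many genes have small ratios. They were P3h3 (0.051) and Cdk19 (0.062) for Vcl, Bok (0.047) and Atrx (0.048) for Actn1, Pdcd6 (0.028) and Ift88 (0.032) for Enah, Trim3 (0.021) and Dlx4 (0.027) for Tpm2, and Pex2 (0.033) and Pcdh18 (0.039) for Rhob. With 4 arrays from 3 pairs this likeness describes these arrays and no more.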

How the data were processed

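The values deposited by the authors are a log ratio for every feature of each array and were read as log2. Which base, background correction, normalization and direction they used is not given in the sources used here. With another base all values scale by 1 factor. Of 17664 features 17207 had a value on all 4 arrays. Symbols came from the platform annotation and clones of 1 symbol were averaged per gene (8106 genes). Arrays 2 and 4 were averaged into pair 2. Per-pair values of all genes were fitted with limma 3.58.1 in R 4.3.3 (lmFit, eBayes, Benjamini-Hochberg), with an intercept and, separately, a dye term of -1, 0 and 1. The script was tested on simulated data. Of the 9 cytoskeleton lists, 1 enters the joint counts only and is not reported here on its own.

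The genes and lists were chosen with earlier results of these data known. Named genes are the 7 and their families, the 6 highest and 6 lowest listed genes of 1 sign on all arrays, the 2 nearest in profile to each, and 4 fibroblast markers. Other cell markers were named after their values were seen. Nothing says whether the mice were littermates or caged together, so p-values measure the spread between these pairs. Alternatives covered the array used for pair 2, direction, scaling, centring, clone averaging, pairs left out, a dye covariate and the features fitted. Promoter windows are RefSeq's, build GRCm38.p6.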

Additional observations from a re-analysis of the deposited data

How the results depend on the processing

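limma called 0 genes under every alternative tried, including pairs left out, a dye covariate, features in place of genes and, added after seeing the data, the 16471 features outside print positions that recur unnamed in all 32 print blocks. Only turning arrays 1 and 2 moved the described values by more than 1 SD. It put Vim at -0.13, Tmsb4x at -0.032, Vcl at 0.065, Actn1 at -0.13, Enah at 0.0044 and Rhob at 0.16. It also left 4 of 13 clones and 31 of 102 other cytoskeleton genes above 0, against 9 and 67 as deposited. These moves follow from the change of sign on arrays 1 and 2 and do not show which direction is right. Leaving out each pair gave 0.71 to 0.92 for Vim, 0.68 to 0.81 for Tmsb4x, 0.18 to 0.33 for Vcl, 0.12 to 0.26 for Actn1, 0.056 to 0.13 for Enah, -0.13 to 0.060 for Tpm2 and -0.28 to -0.025 for Rhob, with 9 to 10 clones and 56 to 74 other genes above 0. With pair 2 from array 2 alone 11 clones and 79 other genes were above 0, and from array 4 alone 9 and 63. Without pair 1 or pair 3 the dyes are unbalanced. No paired analysis was possible beyond the main one because each array already pairs 2 mice. Array signal over background was not used here, so dim clones could not be set apart.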
